A study of Arabidopsis thaliana with 8 samples.

Results

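ATHSP22.0 (AT4G10250), AT5G37670 and AT1G53540 are small heat shock genes of Arabidopsis thaliana, described here in shoots for which the labels name no heat treatment. Their probe sets were those annotated to exactly 1 gene, 255811_at for ATHSP22.0, 249575_at for AT5G37670 and 260978_at for AT1G53540, so the 3 genes are 3 of 22810 probe sets. Whole shoots of the line Col-1 grown on agar plates with 16 h of light a day were taken at the stage of 4 rosette leaves, 6 h into the light period. The groups are spike mixes 1 to 7 and a reference mix, each a set of RNAs added to the shoot RNA. Every group has 1 ATH1 array and therefore no replicate. All 8 arrays carry the same line, tissue, stage and growth conditions in the labels, and the labels do not say whether the shoots came from separate cultures. No mutant allele or other agent is named.

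Small heat shock proteins are chaperones built around an alpha-crystallin domain. They assemble into oligomers that bind unfolding proteins without using ATP and hand them to chaperones of the HSP70 and HSP101 classes for refolding. In plants the family is large, with members sent to the cytosol, nucleus, endoplasmic reticulum, mitochondria, chloroplasts and peroxisomes. In vegetative tissue most of them are known for very low transcript levels at normal temperature and a steep rise on heating, driven by heat stress transcription factors. ATHSP22.0 encodes a form of the endoplasmic reticulum, AT5G37670 a peroxisomal form and AT1G53540 a cytosolic form of class I.

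The deposited values are MAS5 signals on a linear scale with a common mean on every array. A floor was set at the 25th percentile of the whole table, a signal of 12.9, and between 73.6% and 77.0% of probe sets per array lay above it. A second guide to empty signal is given by the 27 probe sets for bacterial poly(A) control RNAs, which have no counterpart in the plant genome; their highest signal on any array was 25.5, in spike mix 7, and between 11.0 and 17.7 on each of the other 7 arrays. The labels do not say whether those control RNAs were added. Signals of different probe sets depend on their probes and are not compared as amounts of RNA. The tissue label was checked with 4 photosynthesis genes, which ranged from 2416 to 4427 over all arrays. By contrast, 2 flower and pollen genes stayed between 0.600 and 10.2, under the floor throughout. The 2 root hair expansins lay between 17.2 and 35.0, above the floor in all 16 values. The floor is a percentile of the table, so a signal above it is not by itself a sign of expression in shoots. In whole shoots, few cells with much transcript and many cells with little cannot be told apart.

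ATHSP22.0 had a low signal that was above the floor on every array. Its signal was 21.1 in spike mix 1, 20.5 in spike mix 2, 24.5 in spike mix 3, 28.4 in spike mix 4, 44.4 in spike mix 5, 38.8 in spike mix 6 and 27.0 in spike mix 7, against 20.8 in the reference mix. Spike mixes 5 and 6 were high, and the other 6 arrays lay between 20.5 and 28.4. The mean was 28.2 ± 8.90 (SD, n = 8 arrays). On each of the 8 arrays the signal was above the highest poly(A) control of that array, by the narrowest margin in spike mix 7, where the control reached 25.5.

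AT5G37670 was also above the floor on every array. It gave 28.4 in spike mix 1, 21.6 in spike mix 2, 21.7 in spike mix 3, 26.0 in spike mix 4, 23.0 in spike mix 5, 33.8 in spike mix 6 and 16.9 in spike mix 7, against 29.6 in the reference mix. The reference array was the next highest after spike mix 6, so this peroxisomal gene was ordered differently from ATHSP22.0. The mean was 25.1 ± 5.39 (SD, n = 8 arrays). It exceeded the highest poly(A) control on 7 arrays, all but that of spike mix 7.

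AT1G53540, the class I gene, was at the floor. Its signal was 8.40 in spike mix 1, 4.40 in spike mix 2, 15.2 in spike mix 3, 17.6 in spike mix 4, 19.6 in spike mix 5, 22.3 in spike mix 6 and 9.50 in spike mix 7, against 12.7 in the reference mix. It was above the floor on 4 arrays, those of spike mixes 3 to 6, and under it on the other 4, and it exceeded the highest poly(A) control on 5 arrays. The mean was 13.7 ± 6.09 (SD, n = 8 arrays). Class I genes resemble each other in sequence, and probe sequences were not used here, so signal from a relative of AT1G53540 cannot be told apart from its own.

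**Figure D1:**
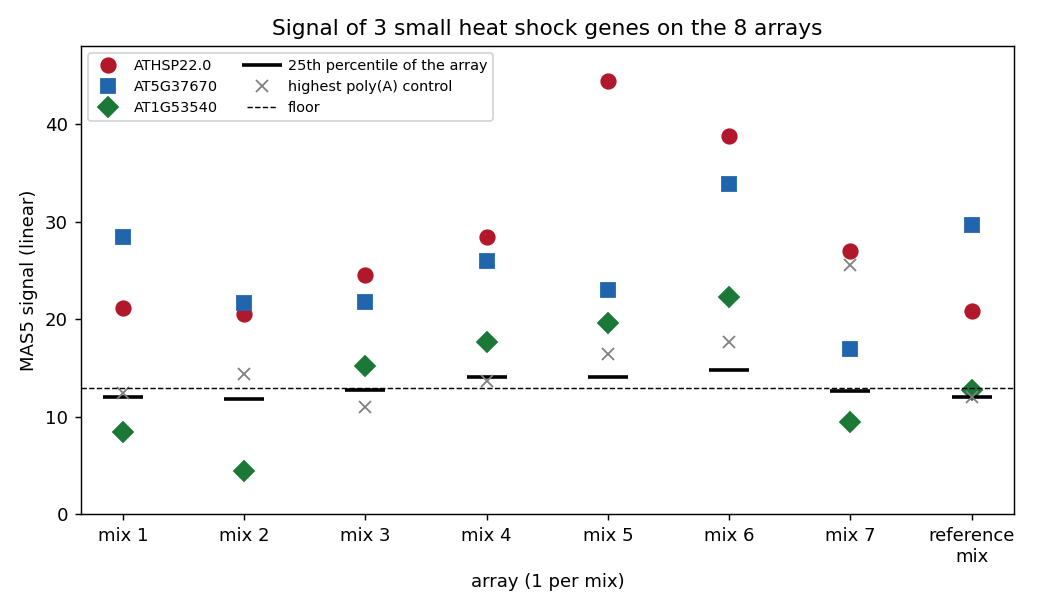
MAS5 signal (linear axis from 0) of ATHSP22.0, AT5G37670 and AT1G53540 on each of the 8 arrays, 1 point per gene and array, with each array's 25th percentile (short bars), its highest poly(A) control (crosses) and the floor of 12.9 (dashed line). ATHSP22.0 stands highest in spike mixes 5 and 6, at 44.4 and 38.8, and AT1G53540 crosses the floor only in spike mixes 3 to 6.

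The arrays differed at their dim end as well. The 25th percentile of signal was 14.1 in spike mix 4, 14.1 in spike mix 5 and 14.8 in spike mix 6, and between 11.8 and 12.7 on the other 5 arrays. These are the 3 arrays on which AT1G53540 was highest and the 3 on which ATHSP22.0 was highest, but not those of AT5G37670, whose 3 highest arrays were spike mix 6, the reference mix and spike mix 1. Since the 25th percentiles fall into 2 separate sets of arrays, no correlation with them is given, and the part of the dim end in the members' signals was not tested.

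Rank within an array does not depend on how bright that array is as a whole. In spike mix 5, 50.8% of non-control probe sets had a lower signal than ATHSP22.0, and in spike mix 6 it was 46.5%, against 35.3% in the reference mix; on the remaining arrays the share lay between 34.9% and 39.5%. For AT1G53540 the share was 31.4% in spike mix 5 and 32.7% in spike mix 6, against 25.9% in the reference mix, and it was lowest in spike mix 2 at 14.6%. For AT5G37670 it was 42.8% in spike mix 6 and 29.8% in spike mix 7, against 42.9% in the reference mix. By rank, then, ATHSP22.0 still stood highest in spike mixes 5 and 6, and AT5G37670 was no higher in spike mix 6 than in the reference mix.

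**Figure D2:**
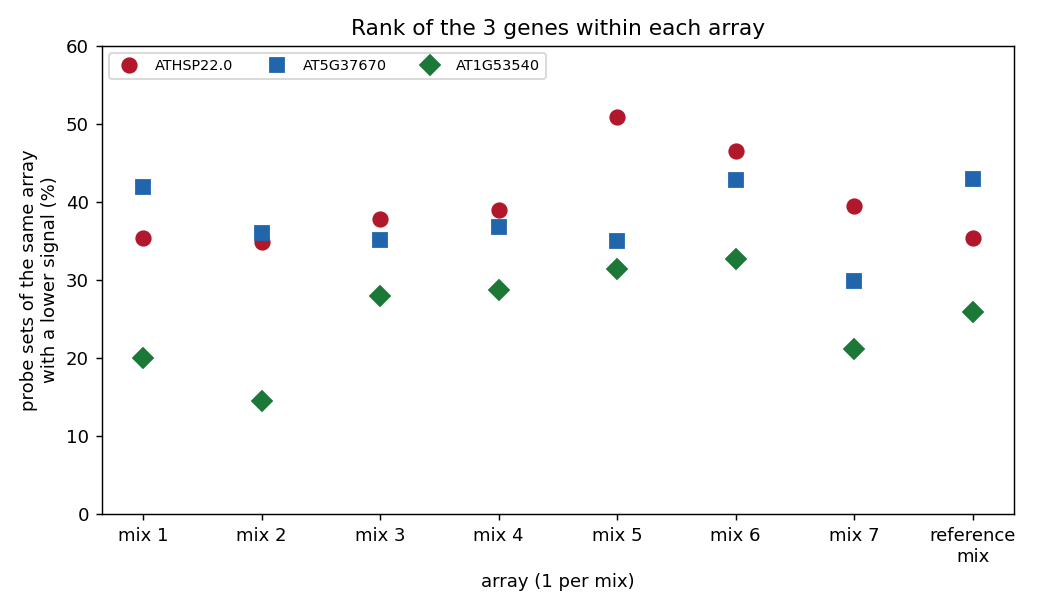
Share of the non-control probe sets of the same array with a lower signal (percent, vertical axis), for the 3 genes on each array, 1 point per gene and array. ATHSP22.0 reaches 50.8% in spike mix 5, against 35.3% in the reference mix, and AT1G53540 runs from 14.6% in spike mix 2 to 32.7% in spike mix 6.

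The order of the arrays was set against the spread usual at this signal. Non-control probe sets were split into 4 bins of equal number by mean signal, and all 3 genes fell in the second bin, from 13.1 to 42.5, where log2 signal had a median SD of 0.29 between arrays. In ATHSP22.0 the step of 0.45 between spike mix 4 and spike mix 6 was larger than that spread, and every other pair of neighbours in its order lay within it. In AT5G37670 the step of 0.35 between spike mix 7 and spike mix 2 was larger, and no other. In AT1G53540 no pair of neighbours differed by more than the spread, and its 4 arrays under the floor have no order.

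Each spike mix was then set against the reference mix as a log2 ratio of floored signals. For ATHSP22.0 the log2 ratio was 1.09 in spike mix 5 and 0.90 in spike mix 6, which are 2.13-fold and 1.87-fold. It was 0.45 in spike mix 4, 0.38 in spike mix 7 and 0.24 in spike mix 3, and 0.02 in spike mix 1 and -0.02 in spike mix 2. AT5G37670 had negative ratios in 6 of the 7 mixes, from -0.06 in spike mix 1 to -0.81 in spike mix 7, and a ratio of 0.19 in spike mix 6. AT1G53540 had 0.79 in spike mix 6, 0.60 in spike mix 5, 0.45 in spike mix 4 and 0.24 in spike mix 3. Its reference signal of 12.7 was just under the floor, so for the deposited values these are lower bounds, the largest being at least 1.73-fold. In spike mixes 1, 2 and 7 AT1G53540 was under the floor on both sides and has no ratio.

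Of 21 pairs of a member and a mix, 1 was at least 2-fold higher than the reference array, ATHSP22.0 in spike mix 5, and 0 were at least 2-fold lower. The 21 include AT1G53540 in spike mixes 1, 2 and 7, which has no ratio and counts as unchanged. With its reference signal at the floor, AT1G53540 could not be called lower in any mix. The shares over all probe sets count such pairs in the same way. Without a floor AT1G53540 was at least 2-fold lower in spike mix 2, from signals under the floor on both arrays. Over all 22746 non-control probe sets, 0.778% were at least 2-fold higher in spike mix 5, and in the second bin of signal 2.74% were. Over the 7 mixes together, 0.683% of all pairs of a probe set and a mix were at least 2-fold higher and 0.337% at least 2-fold lower; in the second bin the shares were 2.26% and 1.01%. A single pair of 21, or 4.76%, is not a count from which the 3 genes could be set apart from equally dim probe sets. The shares at least 2-fold higher in the second bin were largest where the dim end was bright, with 3.94% in spike mix 4 and 4.84% in spike mix 6, and between 0.686% and 1.56% in spike mixes 1, 2, 3 and 7. By mix, the shares of all probe sets at least 2-fold higher were 0.347%, 0.242%, 0.325%, 1.16%, 0.778%, 1.44% and 0.488% in spike mixes 1 to 7, and those at least 2-fold lower were 0.334%, 0.189%, 0.215%, 0.4%, 0.339%, 0.554% and 0.325%. With 1 array for each mix no p-value can be given for any of these ratios, and all 7 share 1 reference array.

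The call for ATHSP22.0 in spike mix 5 ended under quantile normalization, which gives every array the same distribution of signals: the fold there was 1.96. Against the mean of the other 7 arrays its log2 ratio in spike mix 5 was 0.81. For AT1G53540 quantile normalization brought the reference signal to 13.8, above the floor. Its fold in spike mix 6 was then 1.44, under the bound of 1.73 from the deposited values.

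**Figure D3:**
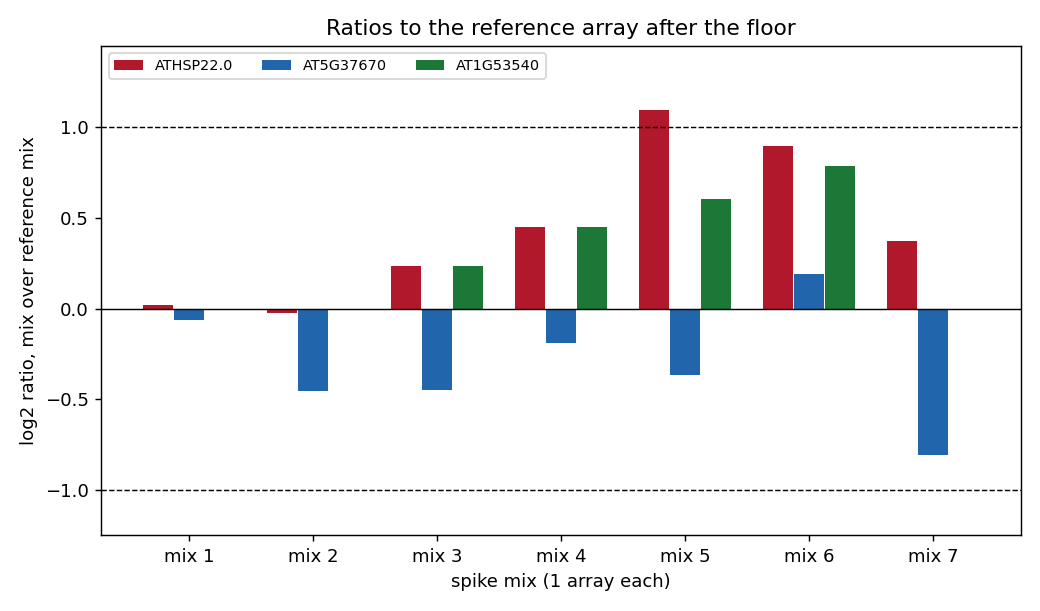
Log2 ratio of floored signal, each spike mix over the reference mix, for ATHSP22.0, AT5G37670 and AT1G53540 (1 bar per gene and mix, no replicates, dashed lines at 2-fold). ATHSP22.0 in spike mix 5, at 1.09, passes the upper line alone, and AT5G37670 comes nearest to the lower line, at -0.81 in spike mix 7; bars of AT1G53540 are bounds, with none where both signals lay under the floor.

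Over the 8 arrays ATHSP22.0 spanned 2.17-fold, AT5G37670 2.00-fold and AT1G53540 at least 1.73-fold, beside a median span of 1.78-fold in the same bin of signal and 1.36-fold over all non-control probe sets. The SD of log2 signal was 0.42 for ATHSP22.0, larger than in 85.4% of probe sets of its bin. It was 0.32 for both AT5G37670 and AT1G53540, larger than in 59.2% and 59.5%. AT1G53540 spanned 5.07-fold in the deposited values, but its lower end lies under the floor. Without the arrays of spike mixes 4, 5 and 6 ATHSP22.0 spanned 1.32-fold, AT1G53540 at least 1.18-fold and AT5G37670 1.75-fold. Those arrays were chosen after the values were seen and are the 3 highest for ATHSP22.0 and AT1G53540, so narrower spans of these genes follow from the choice.

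Among the members, ATHSP22.0 and AT1G53540 had the most alike profiles, with Pearson r of 0.89 and Spearman rho of 0.85 over the 8 arrays. AT5G37670 had r of 0.11 with ATHSP22.0 and 0.42 with AT1G53540. These values describe 8 arrays whose labels give the same tissue and stage, scaled to a common mean, and 4 of the values of AT1G53540 are the floor itself; without a floor the r of ATHSP22.0 and AT1G53540 was 0.74.

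Profiles most like each member were sought among probe sets with 1 gene that stayed at or above the floor on all arrays, 8414 of them for ATHSP22.0 and AT5G37670 and 8415 for AT1G53540. ATHSP22.0 was most like AT1G29680, AT4G10030 and AT1G06930, with r of 0.99, 0.97 and 0.97. AT1G29680 ranged from 20.8 to 38.6, AT4G10030 from 87.6 to 110 and AT1G06930 from 52.0 to 72.8. AT5G37670 was most like AT4G39520, AT3G62860 and CYTC-1, a cytochrome c gene of mitochondrial electron transport, with r of 0.97, 0.94 and 0.94. CYTC-1 had 889 ± 25.5 (SD, n = 8 arrays), so a like order can go with a far smaller relative range. AT1G53540 was most like AT5G35430, AT5G01300 and AT2G19710, with r of 0.99, 0.99 and 0.97. None of these 9 genes belongs to the heat response lists used here. Those lists hold only 18 measured genes, the members included, and not all of them stayed at or above the floor. Their absence among these 9 is therefore no result about the members. The named genes are the highest of many candidates over only 8 points, so their r is high by selection. Over all candidates r was at least 0.9 for 0.440% with ATHSP22.0, 0.0713% with AT5G37670 and 0.844% with AT1G53540. What these shares come from was not tested.

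Other small heat shock and alpha-crystallin genes were taken from a list of 18, of which 8 had a probe set with 1 gene in the annotation used. Besides AT1G52560, described below, 7 could be followed, and with signals floored at 12.9 none of them was at least 2-fold from the reference array in any mix. Without a floor AT5G47600 was at least 2-fold higher in spike mixes 4 and 5, from signals that are under the floor in the reference mix. AT4G21870 had 330 ± 18.4 (SD, n = 8 arrays) and ranged from 297 in spike mix 6 to 356 in spike mix 1. AT2G19310 had 114 ± 4.50, AT1G54050, of class III, 77.3 ± 5.57, and AT5G54660 47.1 ± 5.40. These 4 genes lay above the floor on all 8 arrays, and their spans were between 1.12-fold and 1.40-fold, beside medians of 1.42-fold and 1.27-fold in the 2 brighter bins of signal where they fall.

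The remaining 3 fell in the 2 dimmer bins of signal. AT2G29500, of cytosolic class I like AT1G53540, had 16.7 ± 3.66 and was above the floor on 6 arrays. It was highest in spike mix 1 at 22.3, where AT1G53540 gave 8.40, and low in spike mix 6 at 12.5, where AT1G53540 gave 22.3. Its r with AT1G53540 was -0.35. In that value 4 of the 8 signals of AT1G53540 and 2 of AT2G29500 are the floor itself, so no shared or opposed order can be read from it. The mitochondrial AT5G51440 had 10.9 ± 2.74 and was above the floor on 1 array, that of spike mix 7 at 14.3. AT5G47600 had 11.4 ± 5.22 and was above the floor on 2 arrays, at 18.8 in spike mix 4 and 19.7 in spike mix 5, against 7.50 in the reference mix. Those are also arrays with a bright dim end, and its part in these values was not tested.

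AT1G52560, also a small heat shock gene, differed from all of these. Its signal was 2581 in spike mix 1, 3221 in spike mix 2, 1.20 in spike mix 3, 10.6 in spike mix 4, 11.9 in spike mix 5, 67.5 in spike mix 6 and 424 in spike mix 7, against 402 in the reference mix. After the floor it accounts for the 6 of 56 pairs on the list that were at least 2-fold from the reference array, 2 higher and 4 lower; without a floor the higher pairs numbered 4, with the 2 of AT5G47600. Which RNAs were added is not stated in the labels, and whether its signal came from the shoots or from a mix cannot be told apart. The members did not rise with it. In spike mix 2, where it was highest, ATHSP22.0 gave 20.5 and AT5G37670 21.6, against 20.8 and 29.6 in the reference mix. For ATHSP22.0 that step lies within the usual spread, and AT1G53540 was under the floor on both arrays. The r with AT1G52560 was -0.67 for ATHSP22.0, -0.03 for AT5G37670 and -0.72 for AT1G53540. In these values 3 of the 8 signals of AT1G52560 and 4 of AT1G53540 are the floor itself, so no opposed order can be read from them.

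**Figure D4:**
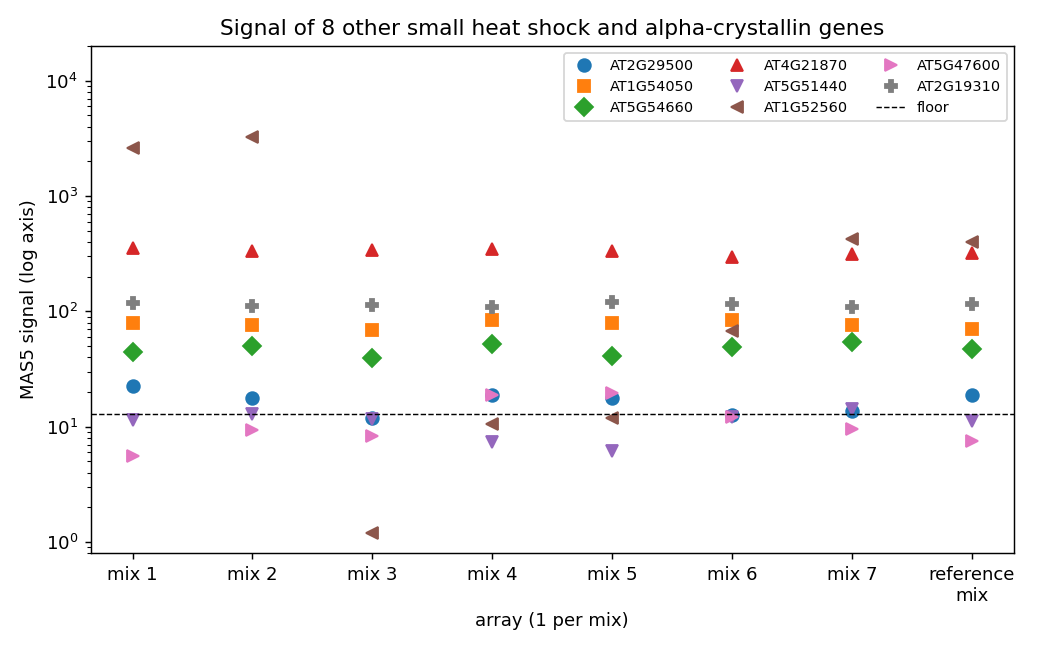
MAS5 signal (log axis) of 8 other small heat shock and alpha-crystallin genes on each of the 8 arrays, 1 point per gene and array, with the floor of 12.9 dashed. Only AT1G52560 spans the axis, from 1.20 in spike mix 3 to 3221 in spike mix 2, while AT4G21870 stays between 297 and 356.

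With AT1G52560 included, the list's median log2 ratio to the reference array lay between -0.03 and 0.10 in the 7 mixes, beside 0.00 over all probe sets in each mix. Probe sets under the floor on both arrays have a ratio of 0, so that 0.00 does not show that the arrays were equally bright. The median signal was lowest on the reference array, at 40.7, and between 40.95 and 44.1 on the spike mix arrays. The median over the 3 members was 0.79 in spike mix 6, 0.60 in spike mix 5, 0.45 in spike mix 4 and 0.24 in spike mix 3; in spike mixes 4, 5 and 6 it is the ratio of AT1G53540, a bound. In spike mixes 1, 2 and 7, where AT1G53540 has no ratio, the floor holds it at 0, and the medians of 0.00, -0.02 and 0.00 rest on that; without a floor they were -0.06, -0.45 and -0.42.

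The chaperones with which small heat shock proteins work could be followed in part. Of 14 heat-inducible chaperones and heat markers 3 were measured. HSA32, needed to keep acquired heat tolerance, had 53.2 ± 8.42 (SD, n = 8 arrays), with 64.0 in spike mix 4, 62.1 in spike mix 6 and 62.7 in spike mix 7, against 46.6 in the reference mix. AT5G48570, a peptidyl-prolyl isomerase of the FKBP type, had 30.4 ± 4.17 and was highest on the reference array at 36.1. Hop3, a co-chaperone that joins HSP70 to HSP90, had 13.7 ± 3.77 and was above the floor on 5 arrays. After the floor none of the 3 was at least 2-fold from the reference array in any of the 7 mixes. Without it Hop3 was at least 2-fold lower in spike mix 7, at 7.30 against 16.7 in the reference mix. The list's median log2 ratio lay between -0.16 and 0.16.

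Of 23 constitutive and organelle chaperones 4 had a probe set with 1 gene in the annotation used, all above the floor on every array. AT3G09440, a cytosolic HSP70, had 323 ± 19.4, and Hop2, a relative of Hop3, 133 ± 18.0. Hsp70-2 had 77.3 ± 11.9 and was highest in spike mix 4 at 97.0, against 66.7 in the reference mix. Hop1 had 79.9 ± 8.93 and was lowest on the reference array at 65.2. None was at least 2-fold from the reference array, and the list's median log2 ratio lay between 0.10 and 0.23. None of the 21 heat stress transcription factors on the list had a probe set with 1 gene in the annotation used, so the factors that act on the members were not analysed here. That annotation left 8794 of the 22810 probe sets unnamed, so the array need not lack these genes.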

How the data were processed

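Shoot RNA was measured on 8 ATH1 arrays, 1 for each of 7 spike mixes and 1 for the reference mix. The authors deposited an intensity for each of 22810 probe sets per array; the submitters' processing notes name MAS5, with no version. The 2% trimmed mean was alike on every array, so the values were used as deposited. The number of arrays limits the precision. Gene names came from the platform's annotation and a TAIR10.1 gene table (13513 with 1 gene, 503 with several, 8794 unnamed here; 13436 matched). The 64 control probe sets were kept apart. Signals under 12.9 were set to it before log2. No difference between mixes was tested, since each mix has 1 array. Dixon's outlier test over the 8 arrays, for 18 heat response genes, found 0 outlying arrays at its critical value of 0.526. It looks for a single array apart from the rest and misses arrays that are high together. AT1G52560, high in both spike mix 1 and spike mix 2, gave only 0.199. The result therefore does not show that the arrays were alike. The members and gene lists were chosen with earlier results of these data known.

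Named genes were the members, every measured gene of the other small heat shock list, in the other lists the 2 of highest mean signal and the 2 of largest SD of log2 signal, and the 3 most alike by Pearson r to each member. Alternatives were floors at the 10th and 40th percentiles or none, quantile normalization, scaling to a common median, a 1.5-fold threshold, leaving out arrays and another comparator. The counts and spans were also computed on simulated data with known changes. Those changes were increases in brighter probe sets, so decreases and changes near the floor were not simulated. The software was matplotlib 3.10.9, scipy 1.17.1, pandas 2.3.3, numpy 2.4.6 and Python 3.11.15.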

Additional observations from a re-analysis of the deposited data

How the results depend on the processing

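The mean signals of the 3 members were taken under both scalings and without each array in turn. They lay between 25.9 and 29.3 for ATHSP22.0, 23.9 and 26.3 for AT5G37670, and 12.5 and 15.0 for AT1G53540. Under both scalings each mean moved by less than 1 SD. Leaving out 1 array of this set cannot move a mean by 1 SD, whatever its signal. The means without an array are therefore given as values only and are no test of stability. The span depended on the floor: at the 40th percentile it was 1.60-fold for ATHSP22.0, 1.22-fold for AT5G37670 and 1.00-fold for AT1G53540, and with the floor at the 10th percentile or none it was 5.07-fold for AT1G53540. Without 1 array at a time it ran from 1.89 to 2.17 for ATHSP22.0, from 1.56 (without spike mix 7) to 2.00 for AT5G37670 and from 1.52 to 1.73 for AT1G53540. Without the arrays of spike mixes 4, 5 and 6, added after the data were seen, it was 1.32 for ATHSP22.0, 1.18 for AT1G53540 and 1.75 for AT5G37670; these are the 3 highest arrays of ATHSP22.0 and AT1G53540, so their drop is built in.

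The count of 1 member and mix pair at least 2-fold higher became 0 against the mean of the other 7 arrays, under quantile normalization and with the floor at the 40th percentile, and 4 at 1.5-fold. The count of 0 lower became 1 with the floor at the 10th percentile or none (AT1G53540 in spike mix 2, under the main floor) and 1 at 1.5-fold. In the other small heat shock list, 2 higher pairs became 4 with the floor at the 10th percentile or none. In the heat-inducible list, 0 lower became 1 with those floors and at 1.5-fold. Of 126 alternative log2 ratios of the members, 99 moved by less than the usual spread of 0.29 and 27 by more, none of these under either scaling. Against the mean of the other 7 arrays 11 moved by more and 10 by less. With the floor at the 40th percentile 10 moved by more and 11 by less. ATHSP22.0 and AT5G37670 were above the main floor on every array, so their ratios could not change with the floor at the 10th percentile or none. Without a floor the members' median log2 ratio was -0.45 in spike mix 2 and -0.42 in spike mix 7. The ratio of the 1 member call, ATHSP22.0 in spike mix 5, was positive in every alternative. That array is its highest, so neither a changed floor nor the mean of the other 7 arrays could turn the ratio negative. Only the scalings could have. Under them the log2 ratio was 1.01 with a common median and 0.97 with quantile normalization. Smaller ratios did change sign against the mean of the other 7 arrays. Examples are ATHSP22.0 in spike mix 3, from 0.24 to -0.17, and AT5G37670 in spike mix 1, from -0.06 to 0.24. No paired analysis was possible because each mix has 1 array and the only replicate number is 1. Signals near the floor limit every ratio of AT1G53540.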
